A study of Mus musculus with 10 samples.

Results

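The genes described here are 8 genes of the urea cycle and of ammonia handling in mouse fetal liver, namely Cps1, Otc, Ass1, Asl, Nags, Slc25a15, Slc25a13 and Glul. They were chosen by name for their place in the pathway, with earlier results of these data known. Counts of these genes beside all genes therefore describe the set and do not test it. Each was found under 1 Ensembl identifier among the 55401 genes of the count table. All 8 were expressed above the low-count filter and were tested together with the other genes, 14098 in all.

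Messenger RNA was sequenced from whole livers of female fetuses at E18.5, from 5 Mir483Pat-KO animals and 5 wild-type (WT) littermates, to ask what loss of the microRNA gene Mir483 changes in the liver transcriptome. Mir483Pat-KO fetuses inherited a constitutive deletion of Mir483 from their father, so the deletion was present in every cell type and not in hepatocytes alone, and their maternal copy was intact. Mir483 lies in an intron of the imprinted gene Igf2, whose maternal copy is largely silent in the fetus. The deletion was made in C57BL/6N-derived JM8.F6 embryonic stem cells, its selection cassette was removed there with Cre, and the line was kept on C57BL/6J. WT fetuses carried no deletion, and no treatment is given for either group. By the study's methods the libraries came from separate fetuses, and which fetuses shared a litter is not given in the sources used here.

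The urea cycle turns ammonia, which is toxic, into urea for excretion. In liver mitochondria Cps1 and Otc join ammonia, bicarbonate and ornithine into citrulline, and in the cytosol Ass1 and Asl carry citrulline on through argininosuccinate to arginine, from which urea is released and ornithine regained. The cycle runs mainly in hepatocytes near the portal vein, while hepatocytes around the central vein catch the remaining ammonia with glutamine synthetase, the product of Glul, whose expression there is driven by Wnt signalling.

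The 10 libraries held 10831350 to 14765880 counts, without a difference between the groups (two-sided exact permutation test over 252 arrangements, p = 0.817). Mir483, the deleted gene, had 10 to 22 counts in each WT library and 0 in each Mir483Pat-KO library, where 0 counts allow up to 0.203 to 0.277 CPM. CPM, the unit of all levels between libraries below, are counts per 1000000 counts of a library, after TMM scaling of the library totals, which corrects for differences in composition. The identification numbers in the labels form 2 separate ranges. The lower range holds WT replicates 1 to 4 and Mir483Pat-KO replicates 1 and 2, and the upper range holds WT replicate 5 and Mir483Pat-KO replicates 3 to 5. What a range stands for is not given in the labels, so it is treated below as a possible grouping of unknown kind.

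The deleted microRNA gives 2 mature strands, and their sequences are shown because their seeds, bases 2 to 8 in capitals, decide which transcripts they can pair with. Sequences and positions are from RefSeq on GRCm38.p6, minus strand, at chr7:142654932-142654952 for the 3p strand and chr7:142654968-142654989 for the 5p strand.
mmu-miR-483-3p: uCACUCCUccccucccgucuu
mmu-miR-483-5p: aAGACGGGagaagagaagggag
The sites complementary to these seeds read AGGAGTG for the 3p strand and CCCGTCT for the 5p strand. Neither site occurred in the longest annotated 3′ untranslated region of any of the 8 genes, which ranged in length from 255 bases in Ass1 and 298 in Asl through 913 in Cps1 to 2306 in Slc25a15. Among the 12888 tested genes with an annotated 3′ untranslated region, 13.9% held the 3p site and 3.68% the 5p site. The search covered exact matches in these windows and leaves other kinds of pairing unexamined.

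Promoter windows, 250 bases before to 50 after the RefSeq start, were found for 6 of the 8 genes, in 7 windows. There were no matching entries for Cps1 and Asl. For 3 genes the 150 bases upstream of the first start that RefSeq or GENCODE annotates are shown on GRCm38.p6, plus strand: Ass1, which was lower in Mir483Pat-KO, Otc, which did not pass the test, and Glul, the perivenous gene. For Ass1 this first start is that of GENCODE, upstream of the RefSeq start, so its stretch lies farther from the RefSeq start than those of Otc and Glul. Capitals mark GC boxes (GGGCGG) and CCAAT boxes (CCAAT).
Ass1 (chr2:31470057-31470206): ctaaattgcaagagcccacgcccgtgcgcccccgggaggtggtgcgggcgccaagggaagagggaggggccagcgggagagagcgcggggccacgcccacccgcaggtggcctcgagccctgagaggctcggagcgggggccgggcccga
Otc (chrX:10252155-10252304): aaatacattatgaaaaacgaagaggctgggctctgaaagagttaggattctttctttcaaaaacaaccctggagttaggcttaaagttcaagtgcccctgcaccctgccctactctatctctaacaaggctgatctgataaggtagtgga
Glul (chr1:153899779-153899928): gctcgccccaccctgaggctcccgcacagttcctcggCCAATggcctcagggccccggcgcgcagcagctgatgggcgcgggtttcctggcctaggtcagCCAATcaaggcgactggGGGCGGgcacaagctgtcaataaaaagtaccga
The Ass1 stretch is 76.0% G and C with 16 CpG dinucleotides, the Glul stretch 66.0% with 11, and the Otc stretch 42.7% with 1. Searched on both strands of the full windows, a GC box was present for Ass1, Nags, Slc25a15 and Glul, against 35.7% of all 32851 promoter windows. In Ass1 it lies downstream of the printed stretch, before the RefSeq start. A CCAAT box was present for Slc25a13 and Glul, against 37.4% of windows. A TATA box (TATAAA, 13.6% of windows) and the letters searched for C/EBP (TTGCNNAA, 10.8%), HNF4A (CAAAGTNCA, 1.41%), FOXA (TGTTTNC, 20.5%), CREB (TGACGTNA, 2.93%) and LEF/TCF (CTTTGAA, 5.14%) were absent from the windows of these 6 genes, which says only that these letters are not in these windows.

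Of the 8 genes, 3 were lower in Mir483Pat-KO livers and none was higher. Cps1 was lower by 36.3%, Asl by 23.5% and Ass1 by 19.5%, in edgeR's quasi-likelihood test at an adjusted p (Benjamini-Hochberg over all 14098 genes) under 0.05. Across all genes tested 5.19% passed this threshold, 2.76% lower and 2.43% higher. The fitted log2 fold change, Mir483Pat-KO over WT, was below 0 for 8 of 8 genes, with a median of −0.25 and a range of −0.65 to −0.13, whereas 49.1% of all genes were below 0 and their median was 0.0042. In all, 6 of the 8 genes were below 0 at an unadjusted p under 0.05 and none above, and DESeq2 gave 3 lower and 0 higher. Over all genes, the background for every such count below, 10.7% were lower and 11.5% higher at an unadjusted p under 0.05, and DESeq2 gave 4.34% lower and 3.94% higher. The groups did not overlap for the same 3 genes that passed the test, against 6.60% of all genes. In bulk tissue, fewer hepatocytes and less RNA per hepatocyte cannot be told apart.

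**Figure D1:**
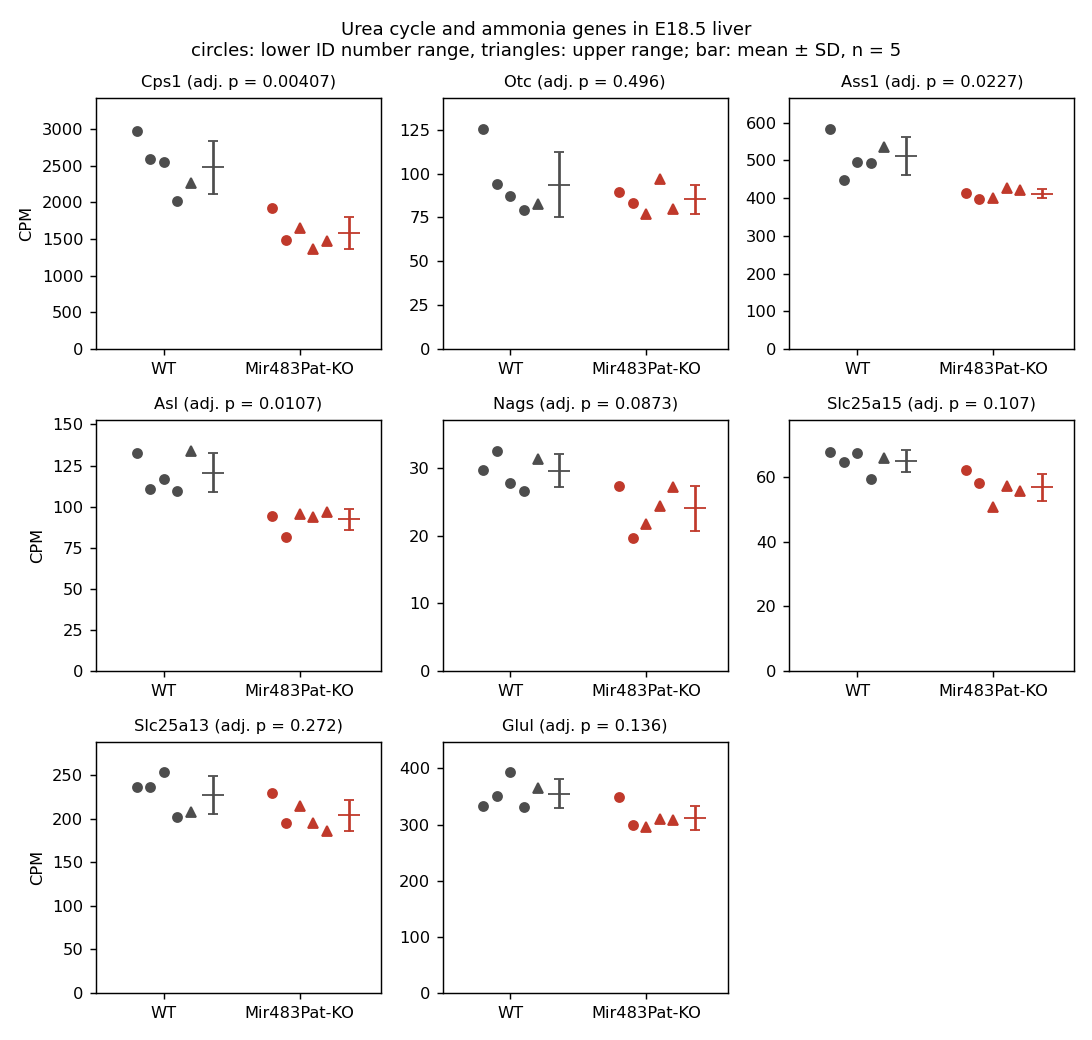
Expression of the 8 genes in CPM (y axis, from 0) in each of 5 WT (grey) and 5 Mir483Pat-KO (red) libraries, with the mean and SD beside the points, circles for the lower identification number range and triangles for the upper, and the edgeR adjusted p above each panel. The WT and Mir483Pat-KO points separate for Cps1, Ass1 and Asl and overlap for the other 5 genes.

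Cps1 (ENSMUSG00000025991, chr1:67123026-67231259, plus strand, GRCm38) encodes carbamoyl phosphate synthetase 1, the rate-limiting entry step of the cycle. Its level was 2972, 2586, 2546, 2018 and 2257 CPM in WT replicates 1 to 5. In Mir483Pat-KO replicates 1 to 5 it was 1924, 1482, 1649, 1369 and 1468 CPM. Every Mir483Pat-KO library was below every WT library, although WT replicate 4 and Mir483Pat-KO replicate 1 came close to each other. The mean fell from 2476 ± 361 to 1578 ± 218 CPM (SD, n = 5 each), a log2 fold change of −0.65 (SE 0.11, edgeR adjusted p = 0.00407). Its change was the largest of the 8 on the log2 scale and, with 15175 to 35598 counts per library, the one with the greatest depth behind it. Nags (ENSMUSG00000048217, chr11:102145513-102149477, plus strand) makes N-acetylglutamate, the activator without which Cps1 does not work. Its level was 29.8, 32.5, 27.9, 26.6 and 31.4 CPM in the WT libraries and 27.3, 19.7, 21.7, 24.5 and 27.2 CPM in Mir483Pat-KO. The lower part of the WT range thus overlapped the upper part of the Mir483Pat-KO range. The log2 fold change was −0.30 (SE 0.10) and did not pass the test (edgeR adjusted p = 0.0873). Exons of the opposite-strand gene Gm11586 cover 15.6% of the exonic bases of Nags, and because the counting strand is not stated, reads of that stretch cannot be assigned with certainty.

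Otc (ENSMUSG00000031173, chrX:10252305-10321024, plus strand), ornithine transcarbamylase, takes the product of Cps1 on to citrulline. It had 125, 93.8, 87.0, 79.4 and 82.9 CPM in the WT libraries and 89.4, 83.1, 76.9, 97.0 and 79.9 CPM in Mir483Pat-KO. WT replicate 1 stood above all others and the remaining 9 libraries intermingled. The log2 fold change was −0.13 (SE 0.11, edgeR adjusted p = 0.496), the smallest of the 8, and it depended on the setting, from −0.28 with GC and length offsets (adjusted p = 0.108) through −0.02 without WT replicate 1 (0.927) to 0.02, on the other side of 0, with libraries scaled to hepatocyte markers (0.942). Whether the changes of Cps1 and Otc, the 2 mitochondrial enzymes of the cycle, differed from each other was not tested. Cps1 had 23.8 to 29.3 reads for each Otc read in WT and 14.1 to 21.5 in Mir483Pat-KO, with no overlap. This ratio does not depend on how libraries were scaled. It was computed after the values were seen and is given without a test.

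Ass1 (ENSMUSG00000076441, chr2:31470207-31520672, plus strand), argininosuccinate synthetase, brings in the second nitrogen of urea by joining citrulline with aspartate. It had 584, 448, 497, 493 and 536 CPM in the WT libraries and 413, 397, 402, 425.9 and 420.7 CPM in Mir483Pat-KO. The Mir483Pat-KO libraries lay close together, with an SD of 12.2 CPM against 51.3 in WT, and all lay below the lowest WT library. The log2 fold change was −0.31 (SE 0.07, edgeR adjusted p = 0.0227). Without Mir483Pat-KO replicate 2 the adjusted p was 0.0520. Asl (ENSMUSG00000025533, chr5:130011258-130029247, minus strand), argininosuccinate lyase, splits the product of Ass1 into arginine and fumarate. Its level was 133, 111, 117, 110 and 134 CPM in the WT libraries and 94.2, 81.2, 95.7, 93.8 and 96.7 CPM in Mir483Pat-KO. The gap between the lowest WT and the highest Mir483Pat-KO library was 109.6 against 96.7 CPM. The log2 fold change was −0.39 (SE 0.08, edgeR adjusted p = 0.0107).

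The carriers of the mitochondrial membrane did not pass the test. Slc25a15 (ENSMUSG00000031482, chr8:22375551-22398597, minus strand), which exchanges cytosolic ornithine for mitochondrial citrulline, had 59.4 to 67.7 CPM in WT with a median library of 65.7, and 50.6 to 62.1 CPM in Mir483Pat-KO with a median library of 57.2. Of the Mir483Pat-KO libraries, 4 of 5 were below all WT libraries, and the log2 fold change was −0.20 (SE 0.07, edgeR adjusted p = 0.107). Slc25a13 (ENSMUSG00000015112, chr6:6041218-6217173, minus strand), citrin, delivers the aspartate that Ass1 uses. It had 202 to 254 CPM in the WT libraries and 186 to 230 CPM in Mir483Pat-KO, ranges that overlapped widely, with a log2 fold change of −0.15 (SE 0.08, edgeR adjusted p = 0.272).

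Glul (ENSMUSG00000026473, chr1:153899944-153909723, plus strand) had 333, 352, 394, 330 and 366 CPM in the WT libraries and 348, 298, 295, 310 and 307 CPM in Mir483Pat-KO. Mir483Pat-KO replicate 1 lay within the WT range and the other 4 Mir483Pat-KO libraries were below all WT libraries. The log2 fold change was −0.19 (SE 0.07, edgeR adjusted p = 0.136), so a change of glutamine synthetase mRNA was not shown. Cps1 and Glul are classical markers of the opposite ends of the liver lobule. Cps1 had 6.11 to 8.93 reads for each Glul read in WT and 4.41 to 5.58 in Mir483Pat-KO, and these ranges did not overlap, although with a ratio chosen after the values were seen this is a description without a test. Exons of Mir8114 on the same strand and of Teddm2 on the opposite strand cover 2.80% and 3.49% of the exonic bases of Glul.

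Together the 8 genes took 0.335% to 0.442% of all counts in WT and 0.263% to 0.314% in Mir483Pat-KO, with no overlap, and Cps1 was the largest part of this share. The ranking of libraries was partly shared between genes. WT replicate 4 was the lowest WT library for 7 genes and never the highest, WT replicate 1 was the highest for 4, and Mir483Pat-KO replicate 1 was the highest Mir483Pat-KO library for 5. Compared per exon length, as TPM (reads per base of exon, scaled to the same sum in every library), the order of levels in WT was Cps1 (1247 ± 169 TPM, SD, n = 5), Ass1 (594 ± 58.7), Glul (299 ± 21.9), Slc25a13 (168 ± 15.3), Asl (69.9 ± 6.34), Otc (61.8 ± 11.6), Slc25a15 (32.3 ± 1.37) and Nags (29.2 ± 1.96). By this length the WT ranges of the neighbours Asl and Otc and of Slc25a15 and Nags overlapped, so it does not order these pairs beyond their spread. In Mir483Pat-KO, Cps1 had 811 ± 108 TPM and Ass1 487.1 ± 19.0 TPM, and Asl (54.6 ± 3.77 TPM) came just below Otc (57.4 ± 5.32 TPM). The places of Asl and Otc rest on the length used. With the longest annotated transcript as the length, Asl was above Otc without overlap in WT (111.5 and 69.7 TPM) and stayed above it in Mir483Pat-KO (86.9 and 64.6 TPM). By that length the WT ranges of Slc25a15 (30.7 to 34.2 TPM) and Nags (22.4 to 26.4 TPM) did not overlap either.

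**Figure D2:**
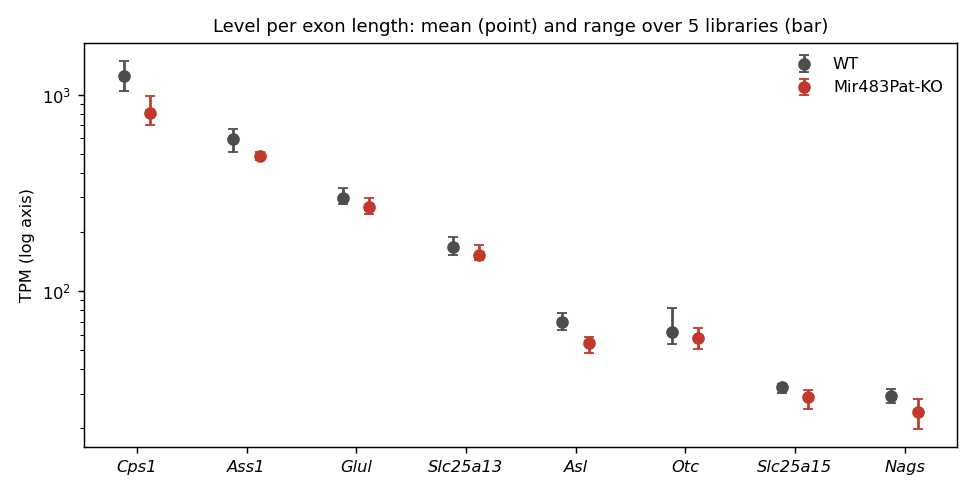
Level per exon length (TPM, log axis) of the 8 genes in the order of their WT means, with points for the mean and bars for the range over 5 WT (grey) and 5 Mir483Pat-KO (red) libraries. WT means run from 1247 TPM for Cps1 to 29.2 TPM for Nags, and Asl and Otc change places between the groups.

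The 3 changes were compared within the identification number ranges. In the lower range, with 4 WT and 2 Mir483Pat-KO libraries, Cps1 had 2018 to 2972 CPM in the WT libraries and 1482 to 1924 CPM in Mir483Pat-KO, Ass1 448 to 584 and 397 to 413 CPM, and Asl 110 to 133 and 81.2 to 94.2 CPM. These 3 genes did not overlap there and the other 5 did. In a fit of these 6 libraries alone the log2 fold changes were −0.57 for Cps1, −0.32 for Ass1 and −0.42 for Asl, with edgeR adjusted p = 0.146, 0.215 and 0.135. In the upper range the lone WT library was above all 3 Mir483Pat-KO libraries for 6 genes, all but Otc and Slc25a13, a comparison with no spread among WT. How many of all genes separate in groups this small was not counted, so the counts within the ranges only describe these libraries. In a fit of all 10 libraries that took the range as a covariate, the log2 fold changes were −0.58, −0.34 and −0.44 (edgeR adjusted p = 0.00832, 0.0192 and 0.00538).

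Lists of marker genes of hepatocytes and other cell types were examined in the same fit. None of 12 hepatocyte markers passed the test, 11 were below 0, and their median log2 fold change was −0.13, with Alb, albumin, at −0.18 (edgeR adjusted p = 0.190). DESeq2 gave 2 of the 12 lower, and 4 were lower at an unadjusted p under 0.05. Their summed level was 237200 to 265800 CPM in the WT libraries and 213500 to 245600 CPM in Mir483Pat-KO. Of 12 erythroid markers 2 were higher (Hbb-bs and Rhag, named after their values were seen), 11 were above 0, and 9 were higher at an unadjusted p under 0.05 and 4 in DESeq2. The list median was 0.26 and the summed level was 16700 to 21360 CPM in WT against 19540 to 27310 CPM in Mir483Pat-KO. The fetal liver is still a site of blood formation, and erythroid cells share the tissue with hepatocytes.

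In a further fit the libraries were scaled to the summed hepatocyte markers. Cps1 still passed, at −0.51 (edgeR adjusted p = 0.00692), whereas Asl (−0.23, adjusted p = 0.0843) and Ass1 (−0.16, adjusted p = 0.215) no longer passed and Otc turned to 0.02. This scaling moved the median of all genes from 0.0042 to 0.15, and 91.4% of all genes that passed were then higher, against 46.8% with TMM. Cps1 had 0.0174 to 0.0238 reads for each Alb read in WT and 0.0130 to 0.0156 in Mir483Pat-KO, without overlap. Of the 9 genes against which Cps1 reads were set, the ratios overlapped between the groups for Ass1, Asl, Nags and Hnf4a and did not for Otc, Slc25a15, Slc25a13, Glul and Alb. Per Hnf4a read, Cps1 had 5.56 to 8.37 reads in WT and 4.28 to 5.61 in Mir483Pat-KO. Of the other lists, 2 of 11 macrophage markers (C1qa and Clec4f) and 1 of 6 megakaryocyte markers (Vwf) were lower and 1 of 6 bile duct markers (Tspan8) was higher, named after their values were seen. Of the macrophage markers, however, 5 were above 0 (4 lower and 1 higher at an unadjusted p under 0.05, and 3 lower in DESeq2). Of the bile duct markers 4 were below 0, with a list median of −0.09, and of the megakaryocyte markers 1 was above 0. None of 10 neutrophil, 10 endothelial or 10 stellate and mesenchymal markers passed in edgeR. At an unadjusted p under 0.05 there was 1 higher neutrophil, 2 lower endothelial and 6 lower stellate markers, and DESeq2 gave 0, 0 and 3. The stellate list had a median of −0.44 and a summed level of 615 to 1147 CPM in WT against 566 to 869 CPM in Mir483Pat-KO. The part of these other cell types in the urea cycle values was not tested.

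**Figure D3:**
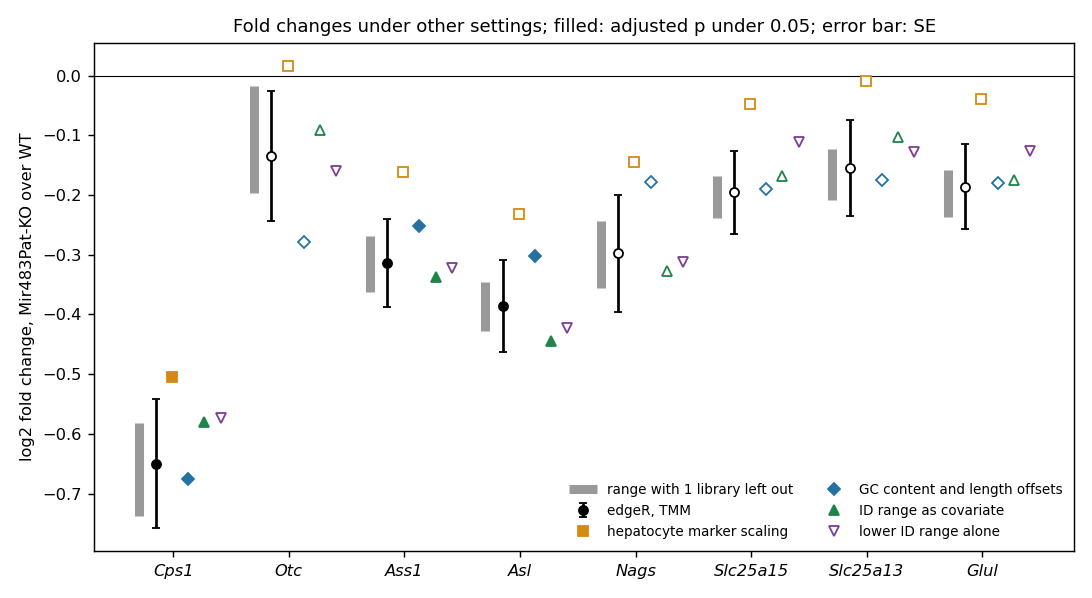
Log2 fold change (Mir483Pat-KO over WT, y axis) of the 8 genes in the edgeR fit with TMM scaling (black, error bar SE) and under 4 other settings, with grey bars for the range when each library in turn was left out and filled symbols for an adjusted p under 0.05. Cps1 stays between −0.74 and −0.51 in these fits, and with hepatocyte marker scaling every gene moves toward 0 and Otc crosses it.

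Around the cycle, 76 of 84 genes on 6 wider lists were tested, and 11 were lower and 1 higher, against 2.76% and 2.43% of all genes, with a median log2 fold change of −0.12. These lists cover ammonia supply, transport, arginine metabolism, regulators and both ends of the lobule. They were written with earlier results of these data known, so their counts beside all genes are a description and no test. Of the 16 genes that supply ammonia and amino nitrogen none passed the test in edgeR (4 lower and 1 higher at an unadjusted p under 0.05, and 1 lower in DESeq2), and the median was −0.13. The most abundant of them, Glud1, glutamate dehydrogenase, had 1004 ± 35.8 CPM in the WT libraries and 951 ± 92.6 CPM in Mir483Pat-KO (log2 fold change −0.08, SE 0.07, edgeR adjusted p = 0.574).

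Of 12 transport genes that were tested, 2 were lower. Aqp9, a hepatocyte channel that lets glycerol and urea through, had 66.8 to 90.3 CPM in the WT libraries and 40.7 to 64.3 CPM in Mir483Pat-KO, without overlap (log2 fold change −0.70, SE 0.12, edgeR adjusted p = 0.00407). Slc25a22, a mitochondrial glutamate carrier, had 39.9 to 48.0 CPM in the WT libraries and 28.3 to 37.0 CPM in Mir483Pat-KO, also without overlap (−0.42, SE 0.08, adjusted p = 0.0107), and did not pass with GC and length offsets (−0.31, adjusted p = 0.0534). The list median was −0.06, and the ammonium transporter genes Rhbg and Rhcg had at most 6 and 2 counts in any library and were not tested. Of 14 arginine, ornithine and proline genes that were tested, 1 was higher and none was lower in edgeR (3 lower at an unadjusted p under 0.05, and 2 in DESeq2). This gene, Azin1, an antizyme inhibitor that keeps ornithine decarboxylase active, had 98.8 to 147 CPM in the WT libraries and 173 to 189 CPM in Mir483Pat-KO (log2 fold change 0.44, SE 0.09, edgeR adjusted p = 0.0133). With GC and length offsets its log2 fold change was smaller, at 0.25, and it still passed (edgeR adjusted p = 0.0365). No other gene of the 6 wider lists was higher, and the median of the arginine list was 0.05.

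Of 15 regulators known from work on urea cycle genes, 2 were lower and none was higher in edgeR (5 and 2 at an unadjusted p under 0.05, and 4 and 0 in DESeq2). Foxa2, a forkhead factor of hepatocytes, went from 17.7 ± 2.01 to 12.6 ± 1.81 CPM (log2 fold change −0.49, SE 0.11, edgeR adjusted p = 0.0201). Gcgr, the receptor for glucagon, which induces the cycle in fasting, went from 45.3 ± 6.70 to 36.2 ± 1.77 CPM with overlapping groups (−0.33, SE 0.09, adjusted p = 0.0491), and it no longer passed when any library but WT replicate 2 was left out (adjusted p = 0.0542 to 0.0986). Its adjusted p was 0.0567 with limma-voom, 0.0579 with the range as a covariate, 0.153 with GC and length offsets and 0.268 with hepatocyte marker scaling. Foxa2 did not pass under the last 2 settings either (0.0765 and 0.0523). Hnf4a, a master factor of hepatocyte genes, had 382 ± 26.0 and 324 ± 17.1 CPM without overlap between the groups and missed the threshold (−0.24, SE 0.07, adjusted p = 0.0540) in the main edgeR test. It passed with DESeq2 (adjusted p = 0.00630), with the range as a covariate (0.0421), with limma-voom (0.0464) and in the robust fit (0.0492), and also without WT replicate 1 (0.0461) or Mir483Pat-KO replicate 1 (0.0451). It did not pass without any of the other 8 libraries (0.0624 to 0.115), with GC and length offsets (−0.17, 0.174) or with hepatocyte marker scaling (−0.08, 0.480). Cebpa, a liver factor known to act on Cps1, had 186 ± 12.3 and 157 ± 20.5 CPM (−0.24, SE 0.09, adjusted p = 0.116), and −0.08 with GC and length offsets and −0.09 with hepatocyte marker scaling (0.616 and 0.551). With the replicate block it was at −0.25 and passed (0.0436). Hnf4a and Cebpa are named here after their values were seen.

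On the lists for the ends of the lobule, 1 periportal gene and 6 perivenous genes passed, all lower in Mir483Pat-KO. On the periportal list 1 of 12 genes passed, Cyp2f2, a cytochrome P450 of hepatocytes near the portal vein, which had 44.7 to 68.4 CPM in the WT libraries and 21.4 to 35.3 CPM in Mir483Pat-KO (log2 fold change −0.81, SE 0.13, edgeR adjusted p = 0.00407). At an unadjusted p under 0.05 there were 5 lower and 0 higher on this list, and DESeq2 gave 2 lower. The list median was −0.17, with 3 of the 12 genes above 0. The histidine-degrading gene Hal, named after its value was seen, was at −0.16 (edgeR adjusted p = 0.353). On the list of perivenous and Wnt-responsive genes 6 of 12 passed, all lower, with a median of −0.46 (6 at an unadjusted p under 0.05 and 5 in DESeq2). Tbx3, a Wnt-responsive transcription factor gene named after its value was seen, was lower without overlap (−0.74, SE 0.19, adjusted p = 0.0310), but lost its call when WT replicate 5 or any of Mir483Pat-KO replicates 2 to 4 was left out (0.0621 to 0.0854). The log2 fold changes of 3 of the 12 were above 0, and the Wnt targets Lgr5 (0.34), Nkd1 (−0.25) and Rnf43 (−0.16), named after their values were seen, did not pass (adjusted p = 0.453, 0.520 and 0.401). Of the 6 that passed, the Wnt target Axin2 had 1.93 to 3.38 CPM in the WT libraries and 0.781 to 1.25 CPM in Mir483Pat-KO (log2 fold change −1.42, SE 0.23, edgeR adjusted p = 0.00399). Cyp2e1, a perivenous cytochrome P450, varied more, with 72.7 to 205 CPM in the WT libraries and 35.8 to 105 CPM in Mir483Pat-KO, and its groups overlapped (−1.45, SE 0.29, adjusted p = 0.0109). It did not pass in the robust edgeR fit (adjusted p = 0.0785). Cyp27a1, a sterol hydroxylase of bile acid synthesis (−0.66, adjusted p = 0.00384), Gulo, of ascorbate synthesis (−0.72, adjusted p = 0.00563), and Lhpp, a phosphatase (−0.69, adjusted p = 0.0168), were also lower by edgeR, although Lhpp did not pass without Mir483Pat-KO replicate 4 (adjusted p = 0.0542). Glul, whose own adjusted p was 0.136, was kept off this list as a member of the 8.

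**Figure D4:**
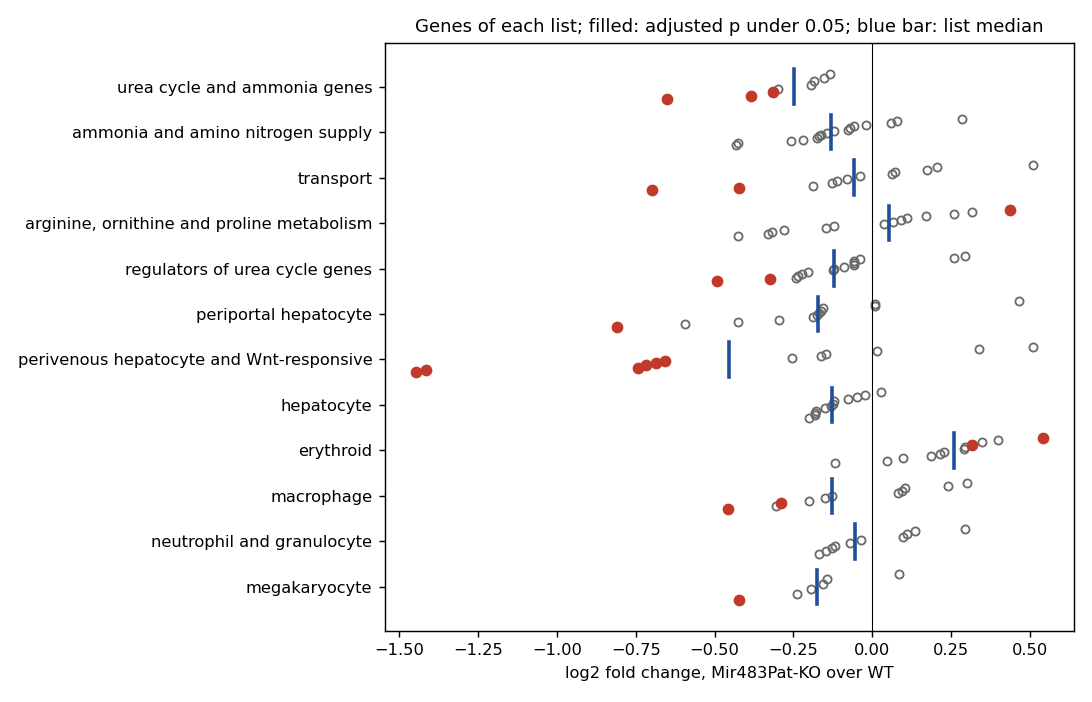
Log2 fold change, Mir483Pat-KO over WT (x axis), of each tested gene on the urea cycle list, the 6 wider lists and 5 lists of liver and blood cell markers, with filled red points for an adjusted p under 0.05 in edgeR and a blue bar for the list median. All 8 urea cycle and ammonia genes lie left of 0 with a median of −0.25, while the erythroid median lies right of 0 at 0.26.

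Genes whose pattern over the 10 libraries was most like that of Cps1 and of Glul were sought among the 4795 genes with an average log2 CPM of at least 5. For Cps1 these were Slc10a1, the bile salt uptake carrier of hepatocytes (Pearson's r of log2 CPM 0.985), Pon1, a serum esterase made in liver (0.964), and Kyat3, a kynurenine aminotransferase (0.964). Since all 3 differed between the groups as Cps1 did, r was also computed within genotype, after removing the group means, and was 0.938, 0.857 and 0.848. Slc10a1 had 340.5 ± 22.4 CPM in the WT libraries and 260 ± 26.8 CPM in Mir483Pat-KO (log2 fold change −0.39, SE 0.08, edgeR adjusted p = 0.0107). For Glul the nearest were Cxcl12, a chemokine (0.917), Ppp1r10, a protein phosphatase subunit (0.912), and Mylk, a myosin light chain kinase (0.905), with 0.825, 0.806 and 0.805 within genotype. The points are the same 10 libraries for every gene and share their depth and cell composition, and the highest values among 4795 genes are high in part because they were picked as such.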

How the data were processed

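The authors extracted RNA from E18.5 female livers, made poly(A) libraries with a TruSeq kit and sequenced them as paired reads. Per the labels and methods, reads were aligned with STAR to GRCm38, and the deposited values are raw gene counts of each library. The strand column and the treatment of multiply mapped reads are not given in the sources used here. Counts were tested here as deposited in R 4.3.3 with edgeR 4.0.16 (filterByExpr, TMM, quasi-likelihood F-test, 5 Mir483Pat-KO against 5 WT, no covariate). The authors also used edgeR's quasi-likelihood F-test, and their filter, scaling and covariates are not given in the sources used here. P-values had Benjamini-Hochberg adjustment over all 14098 genes and a threshold of 0.05. The common biological coefficient of variation was 0.111. On simulated counts for this comparison, on 13974 genes, 97.0% of 200 genes changed 2-fold were recovered and 4.43% of calls were false. The urea cycle and ammonia genes all had fitted changes smaller than 2-fold, and recovery of changes of that size was not measured. Depth was 10831350 to 14765880 counts per library.

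Annotation (GENCODE, GRCm38) gave symbols for 55141 identifiers, exon lengths for TPM and 3′ untranslated regions. Fold changes are fitted values, and levels are CPM. The members and lists were chosen with earlier results of these data known. Of the chosen members and markers, 1 each is not reported here. Named are all 8 members described, Mir483, of each wider list up to 5 genes with the smallest p among those past the threshold (or, with none, the gene with the highest CPM), and the 3 genes most like Cps1 and Glul (average log2 CPM of at least 5, prior count 2). Other names, and Alb, Rhbg and Rhcg, were chosen after the values were seen. Alternatives were other scalings, filters, tests (DESeq2 1.42.0, limma-voom 3.58.1), a replicate block, the identification number range, GC and length offsets, and leaving out each library. Sequences are from RefSeq.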

Additional observations from a re-analysis of the deposited data

Results flagged for a closer look

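Among 54 groups of 5 libraries (27 named genes in each genotype), 7 held a library far from the other 4 by Dixon's test, which chance gives in about 1 in 20 groups. Of the 8 urea cycle and ammonia genes, Asl was lowest in Mir483Pat-KO replicate 2 at 81.2 CPM, with the next library at 93.8, and Glul was highest in Mir483Pat-KO replicate 1 at 348 CPM, with the next at 310.4. Among the wider genes the same Mir483Pat-KO replicate 1 was highest for Aqp9, the glycerol and urea channel, at 64.3 CPM (next 45.6), and for Cyp2e1 at 104.5 CPM (next 43.8). Azin1 was highest in Mir483Pat-KO replicate 3 at 189 CPM (next 177), and Cyp2f2 was highest in WT replicate 1 at 68.4 CPM (next 50.6). Tbx3 was highest in WT replicate 5 at 9.65 CPM (next 6.30). What sets these libraries apart was not tested.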

How the results depend on the processing

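With RLE scaling, DESeq2, limma-voom, a robust fit, both other filters, GC and length offsets and the range as a covariate, the count stayed at 3 of the 8 genes lower and 0 higher. With hepatocyte marker scaling 1 was lower, Otc turned to 0.0163 and Glud1 to 0.0695. In the lower identification number range alone 0 were lower (4 at an unadjusted p under 0.05) and Glud1, Rnf43 and Nkd1 turned to 0.0260, 0.0345 and 0.0663. That fit has 6 libraries and fewer Mir483Pat-KO samples. edgeR's glmTreat against a fold change of 1.5 gave 0 (0 at an unadjusted p under 0.05), since it asks for a larger change. Leaving out each library gave 2 to 3 lower and 0 to 0 higher, with 2 without Mir483Pat-KO replicate 2. Log2 fold changes then ranged from −0.74 to −0.58 for Cps1, −0.36 to −0.27 for Ass1 and −0.43 to −0.35 for Asl. Whether the replicate number pairs libraries was not settled. Same-number correlations were −0.0496 to 0.261 (mean 0.0871, against −0.0217 for other numbers), with the own number best in 2 of 5. With the replicate block 3 were lower. On the wider lists, 11 lower and 1 higher, the higher count was 6 with hepatocyte marker scaling, 3 with no low-count filter, 4 with the replicate block and 3 with the range covariate. In the lower range and with glmTreat both counts were 0 (21 lower and 4 higher, and 3 and 0, at an unadjusted p under 0.05), and leaving out each library gave 8 to 13 lower and 1 to 2 higher, with 2 without WT replicate 2. Over all genes, 389 lower and 342 higher, the counts were 177 and 1892 with hepatocyte marker scaling, 612 and 555 with DESeq2, 4 and 0 with glmTreat, 625 and 633 with no filter, 596 and 742 with the replicate block, 20 and 3 in the lower range, 646 higher with the range covariate, and 192 to 475 lower and 87 to 389 higher with each library left out, both lowest without Mir483Pat-KO replicate 4 (beyond 1.5 times also without WT replicates 3 to 5 and Mir483Pat-KO replicates 2, 3 and 5). The cause of these shifts was not tested. Depth limits little for the 8 genes, but left 8 of 84 wider genes untested.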
